A study of Homo sapiens with 4 samples.

Results

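The genes described here are 9 inhibitory checkpoint receptors or surface partners of T cells, PDCD1, HAVCR2, CTLA4, LAG3, TIGIT, BTLA, CD160, CD244 and CD200, together with CD274, the gene of PD-L1. They were taken by gene name, with earlier results of these data known, and each name matched 1 row, giving 10 of the 50868 genes in the deposited tables. Jurkat cells, a human leukaemic T cell line, had been cultured for 24 h in 4 conditions, and RNA-seq was done on 1 library per condition. The conditions were DMSO, the solvent control, JQ1 at 0.5 μM, DMSO with phytohaemagglutinin (PHA) at 150 ng/ml, and JQ1 at 0.5 μM with PHA at 150 ng/ml. All 4 libraries came from the wild-type line, so the cells shared 1 genetic background and the differences below are between single cultures. JQ1 is an inhibitor of the BET bromodomain proteins, which bind acetylated chromatin, and PHA is a plant lectin that crosslinks the T cell receptor complex. The comparison of JQ1 with its solvent, at rest and under PHA, addressed which of the inhibitory receptors change at the mRNA level under BET inhibition.

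Checkpoint receptors are surface proteins that dampen T cell signalling when they meet their ligand on another cell. PD-1, the product of PDCD1, CTLA-4 and BTLA belong to the CD28 family, TIM-3 (HAVCR2) binds galectin-9 and CEACAM1, LAG-3 binds MHC class II, TIGIT binds the poliovirus receptor and nectins, and 2B4 (CD244) binds CD48. Many of them, PD-1 among them, are induced on activated T cells and stay high on exhausted T cells in tumours and chronic infection. PD-L1 is the ligand through which other cells, and T cells themselves, engage PD-1.

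Sequence upstream of the start is shown for PDCD1, CD244 and CD274, the receptor with the highest level under PHA, the receptor with the highest level at rest, and the ligand. It was taken from the RefSeq promoter table (build GRCh38.p14), which held 8 of the 10 genes, all but HAVCR2 and LAG3. Each sequence is written 5′ to 3′ on the strand of the gene, from 250 bases before the RefSeq start. Capitals mark the NFAT core GGAAA or its reverse TTTCC and the AP-1 motif TGANTCA, which reads the same on both strands. The PDCD1 stretch is chr2:241858895-241859144 on the minus strand, the CD244 stretch chr1:160862888-160863137 on the minus strand, and the CD274 stretch chr9:5450292-5450502 on the plus strand, which ends 39 bases before the RefSeq start, where the GENCODE gene begins.
PDCD1: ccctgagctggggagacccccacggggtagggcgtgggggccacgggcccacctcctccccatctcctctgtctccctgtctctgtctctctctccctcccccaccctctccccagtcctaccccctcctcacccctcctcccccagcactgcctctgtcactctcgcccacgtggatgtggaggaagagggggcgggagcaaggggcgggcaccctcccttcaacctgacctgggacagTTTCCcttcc
CD244: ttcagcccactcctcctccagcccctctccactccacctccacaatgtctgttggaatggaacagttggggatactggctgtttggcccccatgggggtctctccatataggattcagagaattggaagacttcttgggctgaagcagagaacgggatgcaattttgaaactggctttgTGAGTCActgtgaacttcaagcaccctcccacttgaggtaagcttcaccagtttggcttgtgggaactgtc
CD274: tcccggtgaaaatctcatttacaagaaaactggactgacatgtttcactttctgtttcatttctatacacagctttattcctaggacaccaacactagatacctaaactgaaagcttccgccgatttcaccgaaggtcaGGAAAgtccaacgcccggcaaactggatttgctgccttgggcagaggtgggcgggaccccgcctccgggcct

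The NFAT core occurred in 55.6% of the 35116 promoters of the table and the AP-1 motif in 6.57%, within the same 250 bases. PDCD1 had 1 NFAT core, 10 bases before the start, and CD274 had 1, 111 bases before the start. The PDCD1 gene as counted reaches 241858908, so its core is upstream of the RefSeq start but inside the counted gene. CD244 had no NFAT core and 1 AP-1 motif, 71 bases before the start. BTLA and CD160 had 1 NFAT core each, CTLA4 and TIGIT had 2 each, and CD200 had 5, while 7.12% of all promoters had 3 or more. The windows of CTLA4, TIGIT and CD200 lie inside the GENCODE gene. Their cores are thus upstream of the RefSeq start but not of the whole gene. None of the 8 other than CD244 had the AP-1 motif. The motifs do not overlap in these windows, and a match is a string of letters only.

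The libraries held between 18620954 and 19685401 counts on genes. A count of 3, taken as the floor, is 0.152 to 0.161 CPM, the count scaled to the same total in every library, and a gene at 0 could lie anywhere up to that level. T cell identity was checked on 12 markers, which were above the floor in every library with a summed FPKM of 523 to 944. With JQ1, 5 of the 12 were called lower without PHA, beside 13.2% of all genes, with a median log2 ratio of −0.92. With PHA, 7 of 12 were called lower, beside 13.4%, with a median of −1.10. None was called higher in either, beside 7.2% and 5.18%. The part of these differences in the results below was not tested. Of the B cell, monocyte and NK cell markers, CD79A had the highest FPKM, with 343, 51, 304 and 46 counts in DMSO, JQ1, DMSO+PHA and JQ1+PHA. The other 4 B cell markers summed to at most 0.0879 FPKM, the 5 monocyte markers to at most 0.155 and the 4 NK cell markers to at most 0.124. CSF1R, FCGR3A and KLRF1 were at 0 in all libraries. CD79A was called lower in both JQ1 comparisons, and its part in the results was not tested. In these bulk libraries, fewer cells with a transcript and less RNA per cell cannot be told apart.

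Of the 10 genes, 7 exceeded the floor in at least 1 library, and each of these 7 had its highest level in DMSO+PHA. CD200 exceeded the floor in that library alone, and for CD274 and LAG3 the lead over DMSO was within counting error. The share of all genes with their highest level there was not computed, so the shared peak is a description. HAVCR2, CD274 and LAG3 exceeded the floor in all 4. TIGIT was at 0 throughout, CD160 had 1 count in DMSO alone, and CTLA4 had 2 counts in each PHA library, so these 3 were too low to measure. Levels were low also for the rest, and only PDCD1 and CD244 averaged 1 FPKM or more over the libraries.

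**Figure D1:**
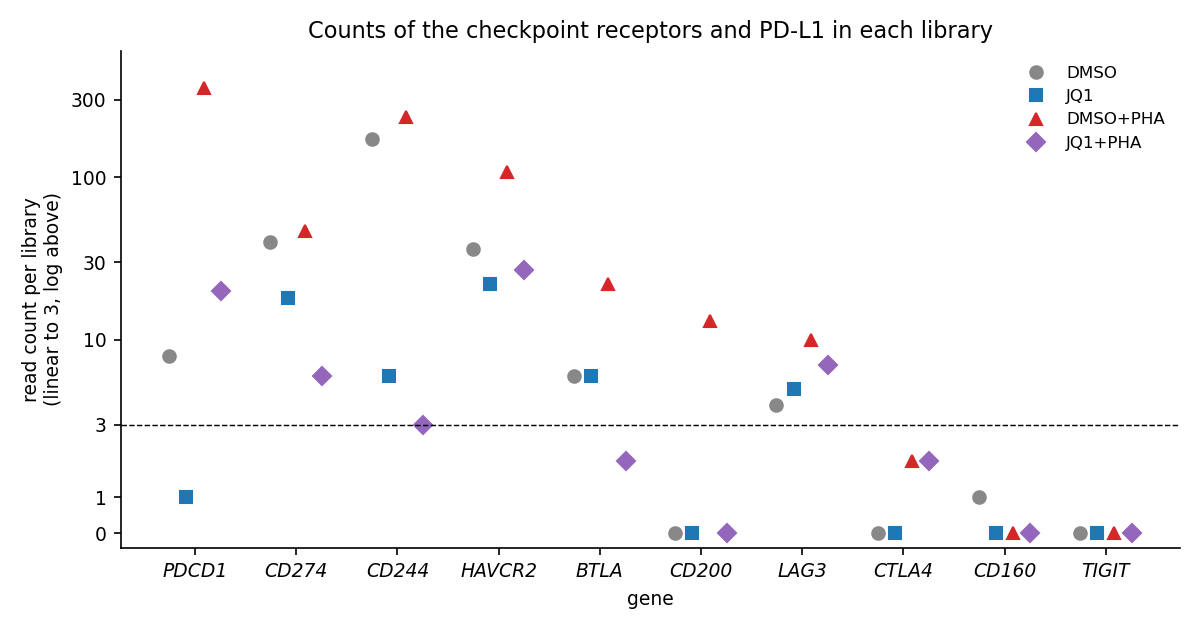
Read counts of the 10 genes in each of the 4 libraries, 1 point per library, with the count axis linear up to 3 and logarithmic above and a dashed line at the floor of 3 counts. PDCD1 reached 356 counts in DMSO+PHA, CD244 had 173 and 235 counts without JQ1 and 6 and 3 with it, and TIGIT had 0 in all 4.

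A ratio between libraries was called when the pair held at least 20 counts, the shares of counts differed at least 2-fold, and the 95% exact interval of the log2 ratio excluded 0. The interval covers counting error only. Since each condition had a single library, the conditions could not be tested against each other. JQ1 against DMSO and DMSO+PHA against DMSO share the DMSO library, and the other comparisons share libraries likewise.

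In JQ1 against DMSO, 3 of the 10 genes had enough counts, CD244, CD274 and HAVCR2. CD244 and CD274 were called lower and none was called higher, beside 13.2% of 15079 genes called lower and 7.2% called higher. Both reached 20 counts in this pair only through the DMSO library, where they were high, so these calls are a description. In JQ1+PHA against DMSO+PHA, 5 genes had enough counts and these 5 (PDCD1, CD274, CD244, HAVCR2 and BTLA) were called lower and none higher, beside 13.4% of 15126 genes called lower and 5.18% called higher. Among genes with 20 to 500 counts in the pair, a range set after the data had been seen, 22.1% were called lower without PHA and 23.2% with it. CD244, CD274 and BTLA reached 20 counts in this pair only through the DMSO+PHA library, where they were high, so the count of 5 describes these genes and supports nothing further. In DMSO+PHA against DMSO, PDCD1, HAVCR2 and BTLA of the 5 with enough counts were called higher and none lower, beside 4.18% of 15191 genes called higher and 1.85% called lower. PDCD1 and BTLA reached 20 counts there only through the DMSO+PHA library, so the count of 3 is likewise a description. In JQ1+PHA against JQ1, 3 genes had enough counts, PDCD1 was called higher and CD274 lower, beside 1.82% of 14742 genes called higher and 1.55% called lower. PDCD1 reached 20 counts there only through the JQ1+PHA library, so its call is a description too.

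**Figure D2:**
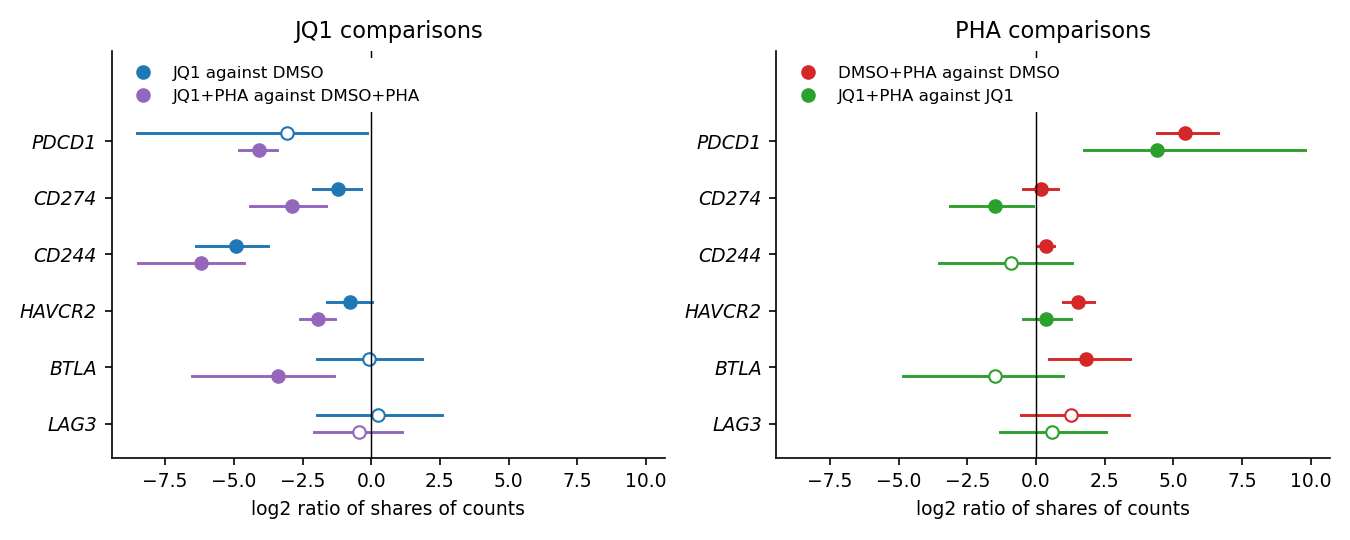
Log2 ratios of the shares of counts (points) with 95% exact intervals (bars) for the 6 genes with more than 3 counts in at least 3 libraries, in the JQ1 comparisons (left) and the PHA comparisons (right); open points are pairs with fewer than 20 counts. The JQ1 intervals of CD244 lie below 0 with and without PHA, and those of LAG3 include 0 in all 4 comparisons.

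PDCD1 encodes PD-1 (ENSG00000188389, chromosome 2, 241849881 to 241858908 in the files, which are on GRCh38). It had 8 counts in DMSO, 1 in JQ1, 356 in DMSO+PHA and 20 in JQ1+PHA, or 0.130, 0.0155, 5.53 and 0.328 FPKM. The DMSO+PHA library was high and the other 3 were low. The log2 ratio of DMSO+PHA to DMSO was 5.41 (4.42 to 6.63), which ranked 7 from the top of the 15191 genes with enough counts. PDCD1 had enough counts there only through DMSO+PHA, so the rank is a description. With JQ1 present the ratio to the JQ1 library was 4.40 (1.76 to 9.77), and it rests on 1 count in the denominator. JQ1 under PHA gave −4.07 (−4.80 to −3.42), and 0.436% of the genes with enough counts had a lower ratio. Without PHA the ratio was −3.06 (−8.54 to −0.17) on 8 and 1 counts, fewer than the minimum.

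CD274 encodes PD-L1 (ENSG00000120217, chromosome 9, 5450503 to 5470566). It had 40 counts in DMSO, 18 in JQ1, 47 in DMSO+PHA and 6 in JQ1+PHA, or 0.272, 0.117, 0.306 and 0.0413 FPKM. Both JQ1 libraries were below both libraries without it, and the share of all genes separated in this way was not computed. The log2 ratio of JQ1 to DMSO was −1.22 (−2.11 to −0.38) and that of JQ1+PHA to DMSO+PHA −2.89 (−4.41 to −1.66). PHA gave 0.17 (−0.47 to 0.81) without JQ1, an interval that includes 0, and −1.51 (−3.13 to −0.11) with it. PDCD1LG2, the other ligand of PD-1, was at 0 in all libraries.

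CD244 encodes 2B4, a receptor of the SLAM family (ENSG00000122223, chromosome 1, 160830160 to 160862855). It had 173 counts in DMSO, 6 in JQ1, 235 in DMSO+PHA and 3 in JQ1+PHA, or 2.34, 0.0776, 3.04 and 0.0410 FPKM. The libraries without JQ1 were high and those with JQ1 were at or near the floor. The log2 ratio of JQ1 to DMSO was −4.91 (−6.38 to −3.76), a 30.2-fold difference and rank 22 from the bottom of 15079 genes. Under PHA it was −6.21 (−8.50 to −4.65), a 74.1-fold difference against 3 counts and rank 6 from the bottom of 15126. In both pairs CD244 had enough counts only through the library without JQ1, so the ranks are a description. PHA alone gave 0.38 (0.09 to 0.67), which was below the 2-fold threshold.

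**Figure D3:**
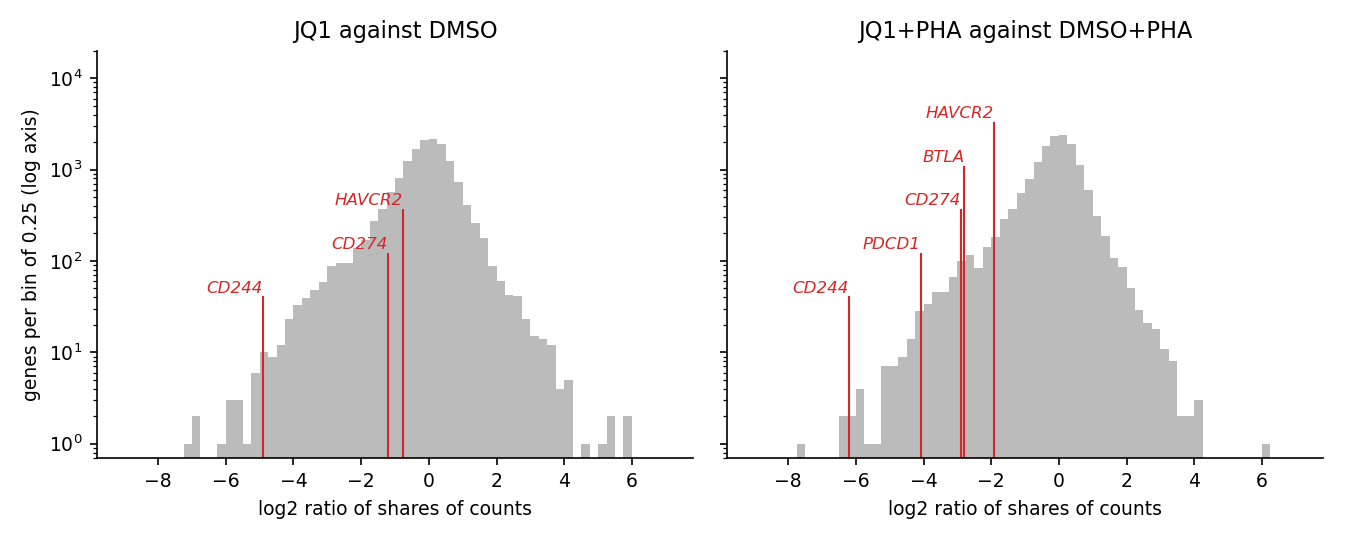
Histograms of log2 ratios between libraries over all genes with at least 20 counts in the pair (grey, log axis) for JQ1 against DMSO (left) and JQ1+PHA against DMSO+PHA (right), with counts below 3 set to 3. Red lines mark the genes described here, of which CD244 lies furthest to the left in both panels, at −4.91 and −6.21.

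HAVCR2 encodes TIM-3 (ENSG00000135077, chromosome 5, 157085832 to 157142869). It had 36 counts in DMSO, 22 in JQ1, 108 in DMSO+PHA and 27 in JQ1+PHA, or 0.338, 0.198, 0.970 and 0.256 FPKM. DMSO+PHA was high and the other 3 lay close together. The log2 ratio with PHA alone was 1.52 (0.96 to 2.11), and JQ1 under PHA gave −1.92 (−2.59 to −1.30). JQ1 without PHA gave −0.78 (−1.61 to 0.03) and PHA in the presence of JQ1 gave 0.38 (−0.49 to 1.26), intervals that include 0. In GENCODE release 44 the exons of HAVCR2 share 50 bases with those of MED7 on the same strand, which had 347, 494, 416 and 457 counts, so a few reads could belong to either gene.

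BTLA, the receptor for the herpesvirus entry mediator (ENSG00000186265, chromosome 3, 112463968 to 112499561), had 6 counts in DMSO, 6 in JQ1, 22 in DMSO+PHA and 2 in JQ1+PHA. Its FPKM values were 0.0691, 0.0660, 0.242 and 0.0233. The log2 ratio with PHA alone was 1.81 (0.46 to 3.40), and that of JQ1+PHA to DMSO+PHA was −3.38 (−6.51 to −1.35) on 2 counts. CD200, whose product binds the inhibitory receptor CD200R1 (ENSG00000091972, chromosome 3, 112332347 to 112362812), had 13 counts in DMSO+PHA (0.0943 FPKM) and 0 in the other 3. The DMSO+PHA level was at least 4.14-fold higher than DMSO and at least 4.10-fold higher than JQ1+PHA, against 3 counts and without the counting error of the 13. With that error the exact limits of the log2 ratios were 1.54 and −1.53, and the pairs held fewer than 20 counts and were not called. The exons of CD200 share 355 bases with a long non-coding RNA on the same strand, which had 4 counts in DMSO+PHA and 0 elsewhere.

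LAG3, a receptor for MHC class II (ENSG00000089692, chromosome 12, 6772512 to 6778455), had 4 counts in DMSO, 5 in JQ1, 10 in DMSO+PHA and 7 in JQ1+PHA. The log2 ratio of JQ1+PHA to DMSO+PHA was −0.43 (−2.06 to 1.11) and that of DMSO+PHA to DMSO was 1.26 (−0.54 to 3.38). That of JQ1 to DMSO was 0.26 (−1.96 to 2.59). Both JQ1 intervals include a 2-fold difference in either direction, so such a difference in LAG3 was not detectable at this depth. CTLA4 (ENSG00000163599, chromosome 2) had 0 counts in DMSO and JQ1 and 2 in each PHA library, with a log2 ratio of JQ1+PHA to DMSO+PHA of 0.08 (−3.71 to 3.87). CD160 (ENSG00000117281, chromosome 1), which like BTLA binds the herpesvirus entry mediator, had 1 count in DMSO and 0 in the rest. TIGIT (ENSG00000181847, chromosome 3) had 0 counts in all 4, and no ratio could be given.

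The JQ1 ratio with PHA minus that without PHA was computed for the 6 genes with more than 3 counts in at least 3 libraries, after 0.5 was added to each count. It was −1.14 (−2.11 to −0.17) for HAVCR2, −1.59 (−3.02 to −0.17) for CD274 and −3.03 (−5.48 to −0.57) for BTLA on the log2 scale, so JQ1 and DMSO lay further apart under PHA, beyond counting error. For PDCD1 it was −1.47 (−4.06 to 1.11), for CD244 −1.19 (−3.08 to 0.71) and for LAG3 −0.63 (−2.88 to 1.62), intervals that include 0. Each of these last 3 had 4 counts or fewer in at least 1 library. So did BTLA, whose difference rests on 2 counts in JQ1+PHA.

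The order of the genes by FPKM, a level per length, changed between libraries. In DMSO, CD244 led at 2.34 FPKM and lay 2.79 on the log2 scale above HAVCR2 (2.26 to 3.35), and no later neighbours differed beyond counting error. In JQ1, HAVCR2 led at 0.198 FPKM and no neighbours in the order differed beyond counting error. In DMSO+PHA, PDCD1 led and lay 0.86 (0.62 to 1.11) above CD244, CD244 lay 1.65 (1.31 to 1.99) above HAVCR2, HAVCR2 lay 1.67 (1.16 to 2.19) above CD274, and BTLA lay 1.25 (0.12 to 2.50) above LAG3. CD274 and BTLA, and the genes after LAG3, did not differ from their neighbours beyond counting error. In JQ1+PHA, PDCD1 and HAVCR2 were close, 0.36 apart (−0.56 to 1.24), HAVCR2 lay 1.77 (0.54 to 3.21) above LAG3, and the rest were not separated. By counts in place of FPKM, HAVCR2 came before PDCD1 in JQ1+PHA, where 4 of the 7 detected genes kept their rank, and CD274 came before HAVCR2 in DMSO. Summed over the 10 genes, the level was 3.20 FPKM in DMSO, 0.525 in JQ1, 10.3 in DMSO+PHA and 0.802 in JQ1+PHA. CD244 made up 73.1% of the sum in DMSO, and PDCD1 made up 53.6% in DMSO+PHA.

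**Figure D4:**
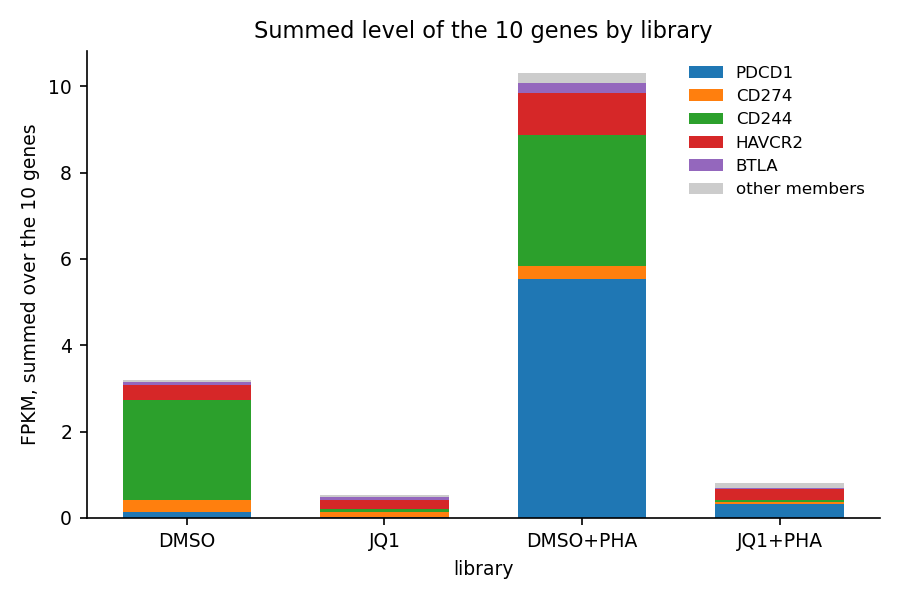
FPKM summed over the 10 genes in each library (stacked bars from 0, 1 library per bar), with the 5 most abundant genes in colour and the other members in grey. The sum was 3.20 in DMSO, mostly CD244, and 10.3 in DMSO+PHA, mostly PDCD1, against 0.525 and 0.802 in the JQ1 libraries.

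The binding partners were taken from a list of 19 ligands and receptors. Of these, 10 had enough counts in JQ1 against DMSO, of which 6 were called lower and none higher. Over all genes with enough counts, 13.2% were called lower and 7.2% higher. The median log2 ratio of the partners was −1.44, beside −0.04 over all genes with enough counts. In JQ1+PHA against DMSO+PHA, 8 of 11 were called lower and none higher, beside 13.4% and 5.18% of all genes. The median was −1.98 beside −0.07. With PHA alone 1 of 11, CEACAM1, was called higher, beside 4.18% of all genes, and it had enough counts there only through DMSO+PHA. Like those of the receptors, these counts cover only the genes with at least 20 counts in the pair. In both JQ1 comparisons HLA-DPA1, NECTIN2 and CD200R1 reached 20 counts only through the library without JQ1, and CEACAM1 did so under PHA.

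Each receptor is set beside its partners here. CD48, the ligand of 2B4, was the most abundant partner called in either JQ1 comparison and had 959, 507, 1585 and 530 counts in DMSO, JQ1, DMSO+PHA and JQ1+PHA. Its log2 ratio with JQ1 was −0.98 (−1.14 to −0.83) without PHA, just short of the threshold, and −1.50 (−1.64 to −1.36) with PHA. These intervals do not overlap those of CD244, and the JQ1 libraries held 6.26 and 6.92 FPKM of the ligand beside 0.0776 and 0.0410 FPKM of the receptor.

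LGALS9, the gene of galectin-9, a ligand of TIM-3, had 548, 160, 835 and 167 counts. Its log2 ratio with JQ1 was −1.84 (−2.10 to −1.58) without PHA and −2.24 (−2.49 to −2.00) with PHA. LGALS9 has near-identical copies, LGALS9B and LGALS9C, which had 11 to 101 counts and could share its reads. CEACAM1, another ligand of TIM-3, had 8, 1, 30 and 3 counts, with −3.24 (−5.60 to −1.56) for JQ1 under PHA. HMGB1, a nuclear protein also bound by TIM-3, had 13156, 15048, 8827 and 9315 counts and differed by 0.13 and 0.16 with JQ1, far under 2-fold.

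TNFRSF14, the herpesvirus entry mediator that BTLA and CD160 bind, had 89, 28, 143 and 42 counts. Its log2 ratio with JQ1 was −1.73 (−2.40 to −1.11) without PHA and −1.69 (−2.22 to −1.18) with PHA. CD200R1, the receptor of CD200, had 51, 9, 61 and 9 counts, with −2.57 (−3.78 to −1.53) and −2.68 (−3.88 to −1.66). Both partners were called lower in both JQ1 comparisons.

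The TIGIT ligands diverged. NECTIN2 had 50, 18, 55 and 9 counts and log2 ratios with JQ1 of −1.54 (−2.40 to −0.74) and −2.53 (−3.73 to −1.50). NECTIN3 had 289, 412, 293 and 381 counts and ratios of 0.45 (0.23 to 0.67) and 0.46 (0.24 to 0.68), higher with JQ1 but under 2-fold. PVR, the poliovirus receptor, had 195, 245, 402 and 288 counts and ratios of 0.26 (−0.01 to 0.54) and −0.40 (−0.62 to −0.18). PVR and NECTIN3 were not called in any JQ1 comparison.

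Of the ligands of LAG-3, HLA-DRB1 had 85, 35, 150 and 36 counts, with log2 ratios with JQ1 of −1.34 (−1.96 to −0.76) and −1.98 (−2.55 to −1.45). HLA-DPA1 had 41, 5, 42 and 8 counts, with −3.10 (−4.80 to −1.76) and −2.31 (−3.61 to −1.20). HLA-DPB1 had 11, 2, 8 and 0 counts, too few to call. HLA-DRA and LGALS3 were at 0 in all libraries and FGL1 had at most 2 counts, and HLA class II genes are similar enough that reads may be shared among them. CD80 and CD86, the ligands of CTLA-4, had at most 4 and 3 counts.

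**Figure D5:**
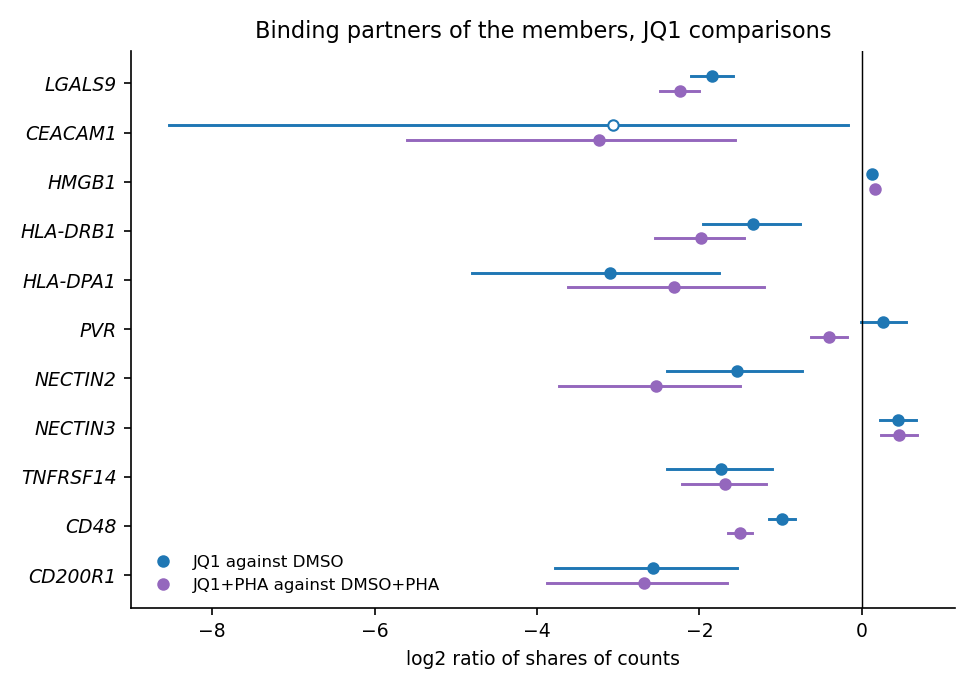
Log2 ratios of the shares of counts (points) with 95% exact intervals (bars) for the 11 binding partners with enough counts, JQ1 against DMSO in blue and JQ1+PHA against DMSO+PHA in purple, the open point having fewer than 20 counts in the pair. LGALS9, HLA-DRB1, HLA-DPA1, NECTIN2, TNFRSF14 and CD200R1 lie below −1 in both, while HMGB1 and NECTIN3 lie above 0.

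Among 16 other inhibitory receptors, 4 of the 8 with enough counts were called lower in JQ1 against DMSO, beside 13.2% of all genes. In JQ1+PHA against DMSO+PHA, 6 of 9 were called lower, beside 13.4%. None was called higher in either, beside 7.2% and 5.18%. The medians were −1.03 and −1.27, beside −0.04 and −0.07 over all genes with enough counts. ADORA2A without PHA and CD300A with PHA had enough counts only through the library without JQ1, so these calls are a description. PVRIG, a further receptor for a nectin, had 546, 28, 529 and 33 counts and log2 ratios of −4.35 (−4.95 to −3.80) and −3.92 (−4.48 to −3.41). Its near-identical copy PVRIG2P had 40 to 58 counts. CD5, a brake on T cell receptor signalling, had 926, 323, 1623 and 369 counts and ratios of −1.58 and −2.06. CD72 had ratios of −1.76 and −2.47. ADORA2A, an adenosine receptor, had 38, 2, 130 and 51 counts and ratios of −4.31 (−7.41 to −2.36) and −1.27 (−1.77 to −0.79). Of its 4190 exon bases, 2380 are shared with the readthrough gene SPECC1L-ADORA2A, which had 191, 140, 36 and 304 counts. Under PHA the readthrough gene was higher with JQ1. The direction of the ADORA2A ratio there may thus depend on how shared reads were assigned. CD96 and CD300A were called lower in JQ1+PHA against DMSO+PHA and not in JQ1 against DMSO, and the difference between these settings was not tested. LAIR1, VSIR and KLRG1 were measurable and not called in either JQ1 comparison.

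Of 14 costimulatory receptors, 5 of the 9 with enough counts were called lower in JQ1 against DMSO, beside 13.2% of all genes. In JQ1+PHA against DMSO+PHA, 10 of 10 were called lower, beside 13.4%. None was called higher in either, beside 7.2% and 5.18%. The medians were −1.52 and −3.31, beside −0.04 and −0.07 over all genes with enough counts. TNFRSF4, TNFRSF8 and CD27 had enough counts without PHA only through the DMSO library. TNFRSF4, CD27 and CRTAM had them with PHA only through the DMSO+PHA library, so these calls are a description. TNFRSF8, the gene of CD30, had 397, 19, 411 and 31 counts, with log2 ratios of −4.45 and −3.65. TNFRSF4, the gene of OX40, had 107, 8, 124 and 10 counts, with −3.81 and −3.55. CD40LG had 165, 26, 1855 and 81 counts, with −2.73 and −4.44, and CD27 had 22, 8, 118 and 6, with −1.52 and −4.22. CD226, which competes with TIGIT for the poliovirus receptor, had 258, 148, 312 and 35 counts, with −0.87 (−1.17 to −0.57) without PHA and −3.08 (−3.62 to −2.57) with PHA. CRTAM had 43 counts in DMSO+PHA and at most 2 elsewhere. With PHA alone 5 of 10 were called higher, beside 4.18% of all genes, with a median of 1.09 beside 0.00 over all genes. ICOS and CRTAM had enough counts there only through the DMSO+PHA library.

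Of 15 signalling partners of the receptors, 2 of the 14 with enough counts were called lower in JQ1 against DMSO and 5 in JQ1+PHA against DMSO+PHA, beside 13.2% and 13.4% of all genes, with medians of −0.11 and −0.22. SH2D1A, the adaptor SAP that binds the tail of 2B4, had 1247, 1017, 2608 and 617 counts and log2 ratios of −0.36 (−0.48 to −0.24) and −2.00 (−2.13 to −1.87). TRAT1, an adaptor of the T cell receptor complex, had −1.28 and −1.50, and LCK −1.85 and −1.78. ZAP70 and CD247, kinase and chain of the receptor complex, had −0.92 and −0.86 without PHA and −1.08 and −1.04 with it. PTPN11, the gene of SHP-2, the phosphatase that PD-1 recruits, had 9526, 10899, 11922 and 10882 counts, and PTPN6, the gene of SHP-1, had 810, 597, 1832 and 1006, neither called with JQ1.

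Of 17 regulators of PD-L1 with enough counts, JAK1 and STAT2, which carry interferon signals, were called higher in both JQ1 comparisons, and CMTM4 was called lower in JQ1+PHA against DMSO+PHA. Over all genes, 7.2% and 5.18% were called higher in these comparisons and 13.4% lower in the latter. JAK1 had 2600, 7291, 3563 and 7468 counts, with log2 ratios of 1.42 (1.36 to 1.49) and 1.15 (1.09 to 1.21), and STAT2 had 605, 1539, 726 and 1682, with 1.28 and 1.29. CMTM4, which stabilises PD-L1 protein together with CMTM6, had 291, 161, 269 and 60 counts, with −0.92 (−1.21 to −0.64) and −2.08 (−2.51 to −1.68), while CMTM6 had 2508, 3356, 3334 and 3330 counts and was not called. IRF1, a direct activator of CD274, had 879, 980, 932 and 962 counts and was not called.

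Of 22 transcription factors linked to exhaustion, 7 of the 17 with enough counts were called higher and 3 lower in JQ1 against DMSO, beside 7.2% and 13.2% of all genes. In JQ1+PHA against DMSO+PHA, 1 of 19 was called higher and 8 lower, beside 5.18% and 13.4%. With PHA alone 11 of 20 were called higher and none lower, beside 4.18% and 1.85%. There TOX2, NR4A3, TBX21, MAF, EGR2 and EGR3 had enough counts only through the DMSO+PHA library. In JQ1 against DMSO, NR4A3, TBX21 and MAF had them only through the JQ1 library. The counts called higher in these comparisons are thus a description. EGR3 had 11, 5, 489 and 60 counts and a log2 ratio of −2.95 (−3.36 to −2.56) for JQ1 under PHA, and EGR2 had 2, 1, 157 and 34 counts and −2.13 (−2.71 to −1.58). TOX2 had 5, 16, 126 and 29 counts and differed in direction, 1.61 (0.10 to 3.42) without PHA and −2.04 (−2.67 to −1.45) with it. MAF had 3, 36, 70 and 55 counts, with 3.52 (1.86 to 5.86) for JQ1 without PHA and −0.27 (−0.80 to 0.26) with it. NR4A1 had −0.93 (−1.59 to −0.29) and −2.11 (−2.60 to −1.64), and BATF −1.78 and −2.09. The differences between the ratios with and without PHA were not tested for these factors.

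The genes whose pattern over the 4 libraries was most like that of a receptor were found among 11552 genes with at least 100 counts in a library, by the Euclidean distance of centred log2(CPM + 0.2). For PDCD1 they were EGR3 at a distance of 0.856, COL6A3 at 0.865, HDC at 1.08, CD69 at 1.16 and TRAC at 1.32. COL6A3 had 18, 1, 770 and 27 counts, and CD69, an early activation marker, had 67, 51, 1359 and 198. For CD244 they were FAM171A1 at 0.493, PADI2 at 0.502, CD1A at 0.506, RAET1E at 0.558 and CST7 at 0.649. CD1A, an antigen-presenting molecule of cortical thymocytes, had 2449, 122, 2278 and 99 counts. For HAVCR2 they were UBASH3B at 0.157, ITM2A at 0.167, RP4-647J21.1 at 0.242, GVINP1 at 0.276 and NR4A1 at 0.302. UBASH3B had 1075, 777, 3279 and 806 counts. With 4 libraries and 1 per condition, likeness is a description, and with log2(CPM + 1) it kept 4 of the 5 genes for PDCD1, 2 of 5 for CD244 and 0 of 5 for HAVCR2.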

How the data were processed

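RNA-seq of Jurkat cells was deposited as 1 table per library, with counts of reads on genes and FPKM. The authors aligned reads to GRCh38 with Hisat2 2.0.4 per the protocol, and the submitters' processing notes list TopHat2 2.0.9 and Cufflinks 2.1.1. The deposited counts are not normalized, and the deposited FPKM are per gene length and library total. Which program counted the reads, whether strand was used, and which annotation release served are not given in the sources used here. The labels and the paper name different library kits.

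Counts were divided by the library total. Ratios have 95% exact (Clopper-Pearson) intervals from the 2 counts, which cover counting error only. Calls needed 20 counts in the pair, 2-fold and an interval without 0. For calls, ranks and medians, counts under 3 were set to 3. Ratios in the text use the counts as they are, with a bound where a count was 0. The interval of the difference between JQ1 ratios is a 95% normal one. Steps were tested on simulated data. The 10 genes, the lists and the motifs were chosen with earlier results of these data known. Of each list, genes called with JQ1 were named, at most 6 by size, with the direct binding partners of the 10 genes, and members named beyond these were chosen after their values were seen. List genes were matched by Ensembl identifier. A further marker list is not reported here. In GENCODE 44 all 10 genes lie on the same chromosome as in the files, 6 with the same start. Alternatives were other scalings, filters, thresholds, intervals and FPKM pseudocounts. Tools were Python 3.11.15, numpy 2.4.6, pandas 2.3.3, scipy 1.17.1, matplotlib 3.10.9, R 4.3.3, DESeq2 1.42.0 and edgeR 4.0.16. DESeq2 and edgeR supplied scaling factors and no test.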

Additional observations from a re-analysis of the deposited data

Results flagged for a closer look

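The PHA ratios of CD274 had opposite signs without and with JQ1. The log2 ratio was 0.17 for DMSO+PHA against DMSO and −1.51 for JQ1+PHA against JQ1. The first interval (−0.47 to 0.81) includes 0, and the second (−3.13 to −0.11) does not. The difference between them, after 0.5 was added to each count, was −1.59 (−3.02 to −0.17), which covers counting error only, since each value comes from 1 library per condition, and no test over replicates was possible. It rests on 18 and 6 counts in the JQ1 libraries. CD274 was no longer called in JQ1+PHA against JQ1 with a 99% interval, a 3-fold threshold, a minimum of 100 counts, or FPKM with a pseudocount of 0.1 or 1 (−0.62 and −0.10).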

How the results depend on the processing

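Scaling by edgeR's TMM factors, by DESeq2's size factors or by the total without mitochondrial genes shifted the log2 ratios by at most 0.06 and left the counts of called genes and the 18 recomputed differences between JQ1 ratios on the same side of their thresholds. No filter on low counts or a 1.5-fold threshold kept each count within 1.5 times. With at least 100 counts in the pair, 1 was called in JQ1 against DMSO and 3 in JQ1+PHA against DMSO+PHA. With that minimum, 2 were called in DMSO+PHA against DMSO and 0 in JQ1+PHA against JQ1. A 3-fold threshold left 1 in JQ1 against DMSO, 2 in DMSO+PHA against DMSO and 1 in JQ1+PHA against JQ1. A 99% interval left 1 in JQ1+PHA against JQ1. Ratios of FPKM with a pseudocount of 0.1 gave 1 in JQ1 against DMSO and 1 in JQ1+PHA against JQ1. With a pseudocount of 1 they gave 1 in JQ1 against DMSO, 2 in JQ1+PHA against DMSO+PHA, 1 in DMSO+PHA against DMSO and 0 in JQ1+PHA against JQ1. CD274 lost its call in JQ1 against DMSO with either pseudocount (−0.78 and −0.19). By counts in place of FPKM, 4 of 7 genes kept their rank in JQ1+PHA. No ratio of a single gene reversed. No paired analysis was possible because each condition has 1 library. Depth limits LAG3, CTLA4, CD160 and TIGIT, and the difference between cultures of 1 condition is unknown.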
